A study of Homo sapiens with 6 samples.

Results

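The genes that encode the TGF-beta ligands, their receptors and the SMAD proteins were examined in A549 cells depleted of BAP18. The 9 genes were taken by symbol from the deposited counts. They were the ligands TGFB1 and TGFB2, the receptors TGFBR1 and TGFBR2, the receptor-regulated SMAD2 and SMAD3, the common SMAD4, and the inhibitory SMAD6 and SMAD7. They made up 9 of the 35474 genes listed, and all 9 were among the 20776 genes that passed the filter on low counts. A549 is an established line from a human lung adenocarcinoma. In the siBAP18 group, 3 cultures were transfected with siRNA against BAP18, a subunit of chromatin complexes that is listed under its locus name C17orf49, and in the siCtrl group 3 cultures received an untargeted siRNA. All 6 cultures were harvested 48 h after transfection, and the labels name no ligand, inhibitor or other agent given to either group. The comparison therefore covers 1 cell line and 1 time point after a transient knockdown, and the sources used here do not say which of the study's BAP18 siRNAs these cultures received.

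TGF-beta ligands are secreted in a latent form, and once released they bring the type II receptor TGFBR2 together with the type I receptor TGFBR1, which then phosphorylates SMAD2 and SMAD3. The phosphorylated SMADs join SMAD4 and enter the nucleus, where they raise or lower target genes, while SMAD6 and SMAD7 restrain the receptors and the SMAD complex. In epithelial and carcinoma cells the pathway is known for growth arrest, for the production of extracellular matrix and for the loss of epithelial features.

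Library totals ranged from 42094524 to 56548620 counts. C17orf49 had 705 to 751 counts in siCtrl and 108 to 137 in siBAP18, which left 15.9% of its normalised expression. Expression is given as CPM, counts relative to the library total after scaling by the TMM method of edgeR, and the values of a group are listed in the order of replicates 1, 2 and 3. Every fold change is siBAP18 over siCtrl and comes, with its standard error (SE), from the quasi-likelihood test of edgeR, with p-values adjusted by the Benjamini-Hochberg method over all genes tested. The epithelial markers KRT8 and KRT18 averaged 13436 and 5996 CPM in siCtrl cells. Of the 6 epithelial markers 1 rose and 4 fell, among them CDH1, and their summed RPKM (counts per kilobase of gene relative to the library total) ranged from 4378 to 4670 in siCtrl and from 3685 to 4274 in siBAP18. The listed blood cell markers summed to between 29.4 and 31.6 RPKM in siCtrl and to between 54.6 and 70.3 in siBAP18, where only CD68, which is also a lysosomal protein of other cells, rose. Fibroblast markers summed to at most 1.41 RPKM and endothelial markers to at most 0.165 RPKM in any library, with KDR at 0 in siCtrl and VWF, COL1A2 and PDGFRB near 0. Mitochondrial genes took 6.86% to 7.43% of the counts in siCtrl and 5.27% to 6.14% in siBAP18. The part of these differences in the results below was not tested.

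Of the 9 genes, TGFB2 and SMAD2 rose, SMAD4 and SMAD6 fell, and 5 did not pass an adjusted p of 0.05. Among all genes tested 49.6% passed this threshold, 24.5% in the higher and 25.1% in the lower direction, so the share of 4 in 9 is near the background. In these bulk libraries, fewer cells expressing a gene and less RNA per cell cannot be told apart. None of the 9 had an absolute log2 fold change over 1, a size that together with the adjusted p was reached by 8.46% of all genes tested, 4.72% higher and 3.74% lower. The siBAP18 and siCtrl libraries did not overlap for 4 of the 9, again 2 higher and 2 lower, against 56.6% of all genes tested, 27.6% higher and 29% lower. The median log2 fold change of the 9 genes was 0.08, beside 0.0010 over all genes tested, and the median absolute log2 fold change was 0.18, beside 0.33. The 9 fold changes ran from −0.50 for SMAD4 to 0.27 for TGFB2.

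**Figure D1:**
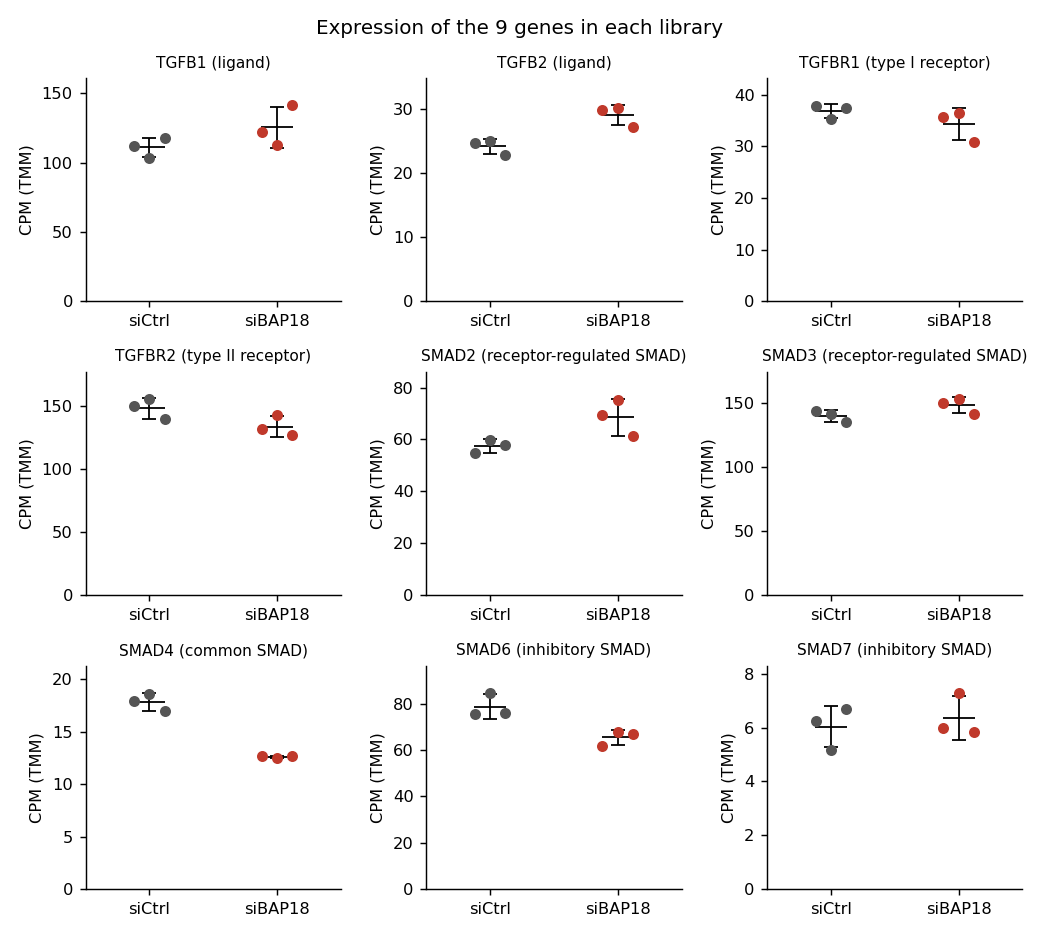
Expression of the 9 genes in CPM (vertical axes from 0) in the 3 siCtrl and 3 siBAP18 libraries, with each point a library and the bars the mean and SD. The points of the groups are apart for TGFB2, SMAD2, SMAD4 and SMAD6, and the 3 siBAP18 points of SMAD4 lie between 12.5 and 12.7 CPM.

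An siRNA guide can also pair with other transcripts through its bases 2 to 8, so the 3′ UTRs of the 9 genes were searched for the 7-base words that match those bases of each siRNA named in the study. The words were AATCACA for siBAP18#1, AAGATTC for siBAP18#2, ACTCAAC for siBAP18#3 and TGTCACG for siCtrl, read on the transcript strand of GENCODE 29 (GRCh38). SMAD2 held 5, 2 and 2 copies of the 3 BAP18 words. Its longest 3′ UTR has 32870 bases, against 6578 for SMAD4, the next longest of the 9 genes. The SMAD2 copies from 10097 bases after the stop codon onward were in only 1 or 2 of its 5 annotated transcripts with a 3′ UTR. TGFBR2 held the words of siBAP18#1 and siBAP18#2, TGFBR1 and SMAD4 that of siBAP18#2, and SMAD3 that of siBAP18#3. The siCtrl word was in none of the 9. Over the 13735 tested genes with an annotated 3′ UTR, the longest one of each gene held the words in 14.0%, 11.1%, 6.79% and 3.00%. The median log2 fold change of genes with the word was −0.14, −0.13, −0.25 and 0.03, beside 0.0072, 0.0024, 0.0032 and −0.01 for genes without it. A longer 3′ UTR is more likely to hold a word, and genes with and without it were not matched for length. The part of length in these medians was not tested. A match is a description of the sequence and does not show pairing. The sites below are those of SMAD4, the gene with the smallest adjusted p, and of the SMAD2 and SMAD3 pair, with the word in capitals, in the order SMAD4 (chr18:51081142-51081148, + strand), SMAD3 (chr15:67190611-67190617, + strand) and SMAD2 (chr18:47839168-47839174 and chr18:47835940-47835946, − strand).
SMAD4, word of siBAP18#2: aataagactaAAGATTCtcacaggttt
SMAD3, word of siBAP18#3: ttggaactctACTCAACccattgttgt
SMAD2, word of siBAP18#3: tgaaattgggACTCAACtctttgaaaa
SMAD2, word of siBAP18#3: aggtgtattaACTCAACatagagggct

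Promoters were searched because SMAD proteins bind the short GTCT element and because several of their partners in the nucleus belong to the AP-1 family, whose binding site is TGANTCA. The windows ran from 250 bases before to 50 after a RefSeq transcript start (GRCh38.p14), with 24 windows for the 9 genes and 35116 in all, and both strands were read. The palindrome GTCTAGAC, which joins a GTCT element to its reverse complement, was in 0.202% of all windows and in the single window of SMAD6, where it began 12 bases before the start. TGANTCA was in 7.71% of all windows and in 2 of the 24. It was in 1 of the 2 windows of TGFBR2, 6 bases before the start, and in 1 of the 5 windows of SMAD3, 56 bases before the start. This SMAD3 window, at chr15:67125492-67125791, is that of a start inside the gene, whose listed first base is 67063763. The shorter element CAGAC on either strand was in 45.3% of all windows and in 10 of the 24, which belonged to TGFB2, TGFBR1, SMAD3 and SMAD7. The matches are shown in capitals, at chr15:66702224-66702231 for SMAD6, chr3:30606595-30606601 for TGFBR2 and chr15:67125686-67125692 for SMAD3, all on the + strand.
SMAD6 promoter: ccgccaaagtGTCTAGACtggcatatga
TGFBR2 promoter: tgaagttgagTGAGTCActcgcgcgca
SMAD3 promoter: ctgactcctcTGAGTCAtgcccagggg

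Among the ligands, TGFB2 rose and TGFB1 did not pass the test. TGFB2, a secreted ligand that needs the co-receptor betaglycan for high affinity binding to TGFBR2, is at chr1:218346235-218444619 (+ strand, GRCh38). It was at 24.8, 24.98 and 22.8 CPM in siCtrl and at 29.8, 30.1 and 27.3 CPM in siBAP18. All 3 siBAP18 libraries lay above all 3 siCtrl libraries. The mean went from 24.2 ± 1.19 (SD, n = 3) to 29.1 ± 1.58 (SD, n = 3), with a log2 fold change of 0.27 (SE 0.0738, 95% interval 0.11 to 0.42, edgeR adjusted p = 0.00390). TGFB2 shares 1371 bases of its exons with TGFB2-OT1, a transcript of the same strand that could not be told apart from it there. These bases are the whole listed length of TGFB2-OT1. With the counts of both summed, the log2 fold change was 0.26 (edgeR adjusted p = 0.00373). How reads in shared bases were counted is not given, so the sum may hold reads of TGFB2 again and is no separate check of its call. With limma on log2(RPKM + 1) without a filter, the TGFB2 call was lost (0.23, adjusted p = 0.0691).

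TGFB1, a ligand known to inhibit the growth of epithelia, is at chr19:41301587-41353911 (− strand, GRCh38). Its expression was 112, 104 and 118 CPM in siCtrl, and 122, 113 and 142 CPM in siBAP18. The groups overlapped through siBAP18 replicate 2, which lay below siCtrl replicate 3. The log2 fold change of TGFB1 was 0.18 (SE 0.0772, 95% interval 0.02 to 0.34), and the adjusted p was 0.0604. It was below 0.05 in 5 of 17 other settings, and without siBAP18 replicate 2 the log2 fold change was 0.25 (adjusted p = 0.00272). TGFB1 also shares 215 bases with HNRNPUL1 on the opposite strand, and whether the counting used the strand is not stated in the sources used here.

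Neither receptor passed the test. TGFBR2, the kinase that binds the ligand and is lost or reduced in many carcinomas, is at chr3:30606502-30694142 (+ strand, GRCh38). It was at 150, 156 and 140 CPM in siCtrl and at 132, 143 and 127 CPM in siBAP18. The siBAP18 value of replicate 2 lay above the siCtrl value of replicate 3, and the other siBAP18 libraries lay below every siCtrl library. The mean was 148.5 ± 8.15 (SD, n = 3) in siCtrl and 134.1 ± 8.06 (SD, n = 3) in siBAP18, and the log2 fold change was −0.15 (SE 0.0687, 95% interval −0.29 to −0.0060, edgeR adjusted p = 0.0781). It passed when replicate numbers were fitted as a block (adjusted p = 0.0306) and without siBAP18 replicate 2 (−0.20, adjusted p = 0.0105).

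TGFBR1, the type I receptor kinase that phosphorylates SMAD2 and SMAD3, is at chr9:99104038-99154192 (+ strand, GRCh38). Its 3 siCtrl libraries were at 37.9, 35.4 and 37.4 CPM and its 3 siBAP18 libraries at 35.7, 36.5 and 30.9 CPM. The groups overlapped, and siBAP18 replicate 3 stood lowest. The log2 fold change was −0.10 with a 95% interval from −0.25 to 0.05 (edgeR adjusted p = 0.279), so a fall of the size seen for SMAD4 lay outside the interval. Without siBAP18 replicate 3 it was −0.03.

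Of the receptor-regulated SMADs, SMAD2 rose and SMAD3 did not pass the test. SMAD2 is at chr18:47808957-47931146 (− strand, GRCh38). Its values were 54.7, 59.9 and 57.9 CPM in siCtrl and 69.4, 75.2 and 61.2 CPM in siBAP18. Every siBAP18 library was above every siCtrl library, with siBAP18 replicate 3 close to the highest siCtrl value. The mean was 57.5 ± 2.62 (SD, n = 3) in siCtrl and 68.6 ± 7.07 (SD, n = 3) in siBAP18, a log2 fold change of 0.26 (SE 0.0750, 95% interval 0.10 to 0.41, edgeR adjusted p = 0.00618). The SMAD2 call was lost without siCtrl replicate 1 (0.22, adjusted p = 0.0630) and in the 3 fits of limma on RPKM (0.16 to 0.24, adjusted p from 0.123 to 0.232). Its 3′ UTR is the one that holds all 3 BAP18 guide words given above.

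SMAD3, which binds DNA directly and carries much of the response of target genes, is at chr15:67063763-67195195 (+ strand, GRCh38). Its expression was 144, 141 and 135 CPM in siCtrl and 150, 153 and 141 CPM in siBAP18. The lowest siBAP18 library lay below the highest siCtrl library. The log2 fold change of SMAD3 was 0.08 with a 95% interval from −0.05 to 0.22 (SE 0.0655, edgeR adjusted p = 0.314). SMAD3 shares 182 bases with RP11-798K3.2 on the opposite strand, which had 12 to 45 counts per library.

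The common SMAD4, the shared partner of the TGF-beta and BMP branches and a tumor suppressor in several carcinomas, showed the largest fall among the 9 genes. It is at chr18:51028394-51085045 (+ strand, GRCh38). The deposited counts of SMAD4 were 954, 867 and 794 in siCtrl and 688, 730 and 514 in siBAP18, which correspond to 17.9, 18.6 and 16.99 CPM and to 12.6, 12.5 and 12.7 CPM. The 3 siBAP18 libraries were nearly level and all lay below the lowest siCtrl library. The mean fell from 17.9 ± 0.831 (SD, n = 3) to 12.6 ± 0.0952 (SD, n = 3), a log2 fold change of −0.50 (SE 0.0798, 95% interval −0.67 to −0.34, edgeR adjusted p = 9.69e-06), or 0.706 times the siCtrl level. SMAD4 passed in each of the 18 other settings tried, and its fold change moved by over 1.5 times only with limma on log2(RPKM + 1), a scale that compresses low values (−0.27, adjusted p at most 0.0207).

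Part of the SMAD4 transcript is also annotated as RP11-729L2.2, a gene of the same strand that shares 967 bases with it. RP11-729L2.2 had 372, 345 and 274 counts in siCtrl and 256, 278 and 210 in siBAP18, with a log2 fold change of −0.47 (SE 0.117, edgeR adjusted p = 0.00146). Reads of these exons could not be assigned to one of the pair from the files. With both counts summed, the log2 fold change was −0.49 (SE 0.0763, edgeR adjusted p = 6.56e-06). The same reads may stand in both counts, so the sum is no separate check of the SMAD4 call.

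The genes whose expression tracked SMAD4 most closely over the 6 libraries, by Pearson r of log2 CPM among 14221 genes, were H2AFV, MPRIP, AHCYL2, FAM98B and OAS3, with r from 0.998 to 0.9997. H2AFV encodes a histone variant, MPRIP a regulator of myosin phosphatase and OAS3 an interferon-induced enzyme that senses double-stranded RNA. All 5 were lower in siBAP18, with log2 fold changes between −0.84 for FAM98B and −0.31 for MPRIP. The 6 points fall into 2 groups and the 5 genes share that group difference with SMAD4, so r is a description and no p is given.

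Of the inhibitory SMADs, SMAD6 fell and SMAD7 did not pass the test. SMAD6, which acts mainly on the BMP branch and whose promoter window holds the palindrome shown above, is at chr15:66702228-66782848 (+ strand, GRCh38). It was at 75.6, 84.8 and 75.9 CPM in siCtrl and at 61.9, 67.6 and 66.9 CPM in siBAP18. All siBAP18 libraries lay below all siCtrl libraries. The mean fell from 78.8 ± 5.21 (SD, n = 3) to 65.5 ± 3.14 (SD, n = 3), a log2 fold change of −0.27 (SE 0.0698, 95% interval −0.41 to −0.12, edgeR adjusted p = 0.00249). The SMAD6 call was kept in each of the 6 fits that left out a library and was lost with limma on log2(RPKM + 1) without a filter (−0.23, adjusted p = 0.0523).

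SMAD7, a feedback inhibitor that is itself a direct target of SMAD3 and SMAD4 and that brings ubiquitin ligases to TGFBR1, is at chr18:48919853-48950711 (− strand, GRCh38). It had the lowest counts of the 9 genes, 332, 241 and 312 in siCtrl and 325, 426 and 236 in siBAP18. In CPM these were 6.24, 5.18 and 6.67 and then 5.97, 7.29 and 5.82, so the groups overlapped and replicate 2 was the lowest siCtrl and the highest siBAP18 library. The log2 fold change of SMAD7 was 0.08, its SE of 0.121 was the largest of the 9, and the 95% interval from −0.17 to 0.33 covers no change and also a rise as large as that of SMAD2 (edgeR adjusted p = 0.607). Its sign turned without siCtrl replicate 2 (−0.02) or siBAP18 replicate 2 (−0.03).

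**Figure D2:**
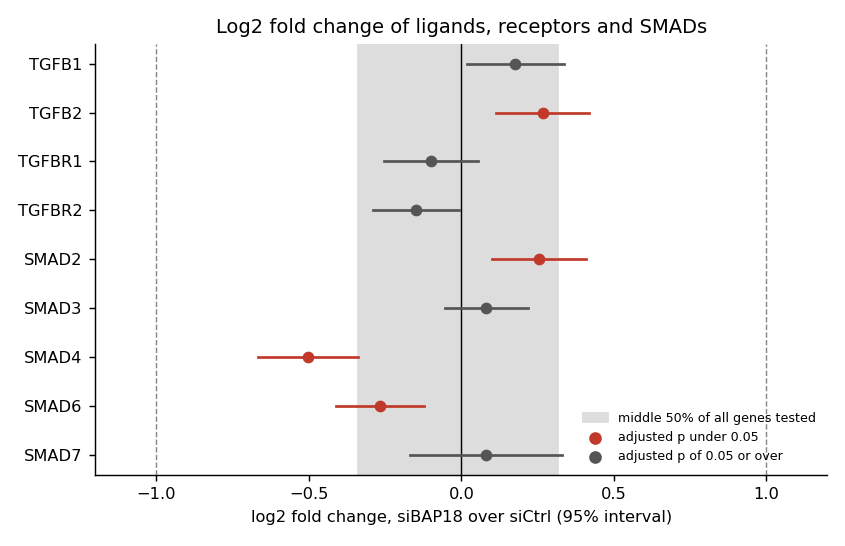
Log2 fold change of each gene (points, horizontal axis) with its 95% interval (lines, not adjusted over genes), in red where the adjusted p was under 0.05. Grey is the range that holds the middle 50% of all genes tested, and dashed lines mark the fold threshold at an absolute log2 value of 1. SMAD4 at −0.50 is the only point outside the grey range.

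Levels can be compared between genes only per length, and on the scale of deposited RPKM the ligand TGFB1 and the receptor TGFBR2 were highest. TGFB1 averaged 34.2 ± 1.87 RPKM (SD, n = 3) in siCtrl and 38.7 ± 3.12 (SD, n = 3) in siBAP18, and TGFBR2 averaged 31.5 ± 1.99 (SD, n = 3) and 28.6 ± 2.68 (SD, n = 3). Their siCtrl libraries overlapped, while in siBAP18 every TGFB1 value was above every TGFBR2 value. Then came SMAD3 at 15.3 and 16.3 RPKM and SMAD6 at 9.18 and 7.66 RPKM in siCtrl and siBAP18, each apart from its neighbours in both groups. TGFBR1 at 5.38 and TGFB2 at 4.69 RPKM were apart in siCtrl, and at 5.03 and 5.66 RPKM they overlapped in siBAP18 with their order turned. SMAD7 and SMAD2 overlapped in both groups, at 1.63 and 1.58 RPKM in siCtrl and at 1.73 and 1.89 RPKM in siBAP18. SMAD4 had the lowest mean in both groups, at 1.36 ± 0.0753 RPKM (SD, n = 3) in siCtrl and 0.962 ± 0.0278 (SD, n = 3) in siBAP18. In siCtrl it overlapped SMAD7, since its highest library, at 1.44 RPKM, lay above the lowest of SMAD7, at 1.42 RPKM.

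The low end of this order rests on the length used. The table lists 36366 bases for SMAD2 and 13123 for SMAD4, whereas the shortest principal transcript in GENCODE 29 has 12075 bases for SMAD2 and 8495 for SMAD4. Per kilobase of the principal transcript, SMAD2 was at 4.76 in siCtrl and 5.70 in siBAP18, near TGFB2 at 4.86 and 5.87. SMAD2 also has a principal transcript of 34526 bases, close to the listed length, so this place near TGFB2 rests on the shorter one. On that scale SMAD4 was at 2.10 and 1.49, and SMAD7 had the lowest means, 1.36 and 1.44. The listed length of SMAD7, 3692 bases, is shorter than its principal transcript of 4428 bases. Its place below SMAD4 therefore rests on bases that the table does not list. Only group means were computed on that scale, so overlap between libraries was not examined there. TGFB1, TGFBR2, SMAD3 and SMAD6 kept their order on that scale in both groups.

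**Figure D3:**
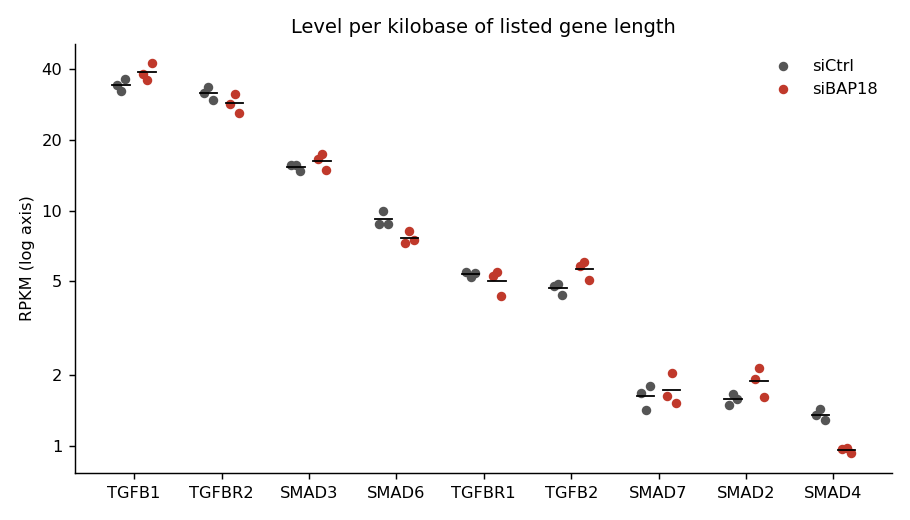
RPKM of the 9 genes per kilobase of the listed gene length on a log axis, with each point a library and each bar a group mean, ordered by the siCtrl mean. Values run from 0.930 RPKM for SMAD4 in siBAP18 to 42.1 RPKM for TGFB1 in siBAP18, and on this scale the groups are apart for TGFB2, SMAD4 and SMAD6.

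Ratios within a library do not depend on library scaling, and 4 of them set the paired members of each role side by side. The size of a ratio rests on the listed lengths, as above, whereas the difference between the groups does not. SMAD3 to SMAD2 was 10.5, 9.39 and 9.29 on the RPKM scale in siCtrl and 8.62, 8.11 and 9.21 in siBAP18. The groups did not overlap, and the difference of −0.17 in mean log2 ratio had an exact two-sided permutation p of 0.1, the smallest that 3 libraries against 3 can give (adjusted over the 4 ratios, 0.4). SMAD7 to SMAD6 was 0.192, 0.142 and 0.204 in siCtrl and 0.224, 0.250 and 0.202 in siBAP18. These overlapped, with a log2 difference of 0.34 (exact permutation p = 0.2, adjusted p = 0.4), which was 0.18 without siCtrl replicate 2. The ratios TGFB1 to TGFB2 (mean 7.33 in siCtrl and 6.92 in siBAP18) and TGFBR1 to TGFBR2 (0.171 and 0.176) differed by −0.09 and 0.04 on the log2 scale, each with an exact permutation p of 0.6. With 3 libraries per group none of these tests could pass 0.05.

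The other genes of the pathway were read from 5 lists grouped by role. The lists were chosen with earlier results of these data known, and genes named beyond those picked by size and adjusted p were chosen after their values were seen. The counts below stand beside 24.5% of all genes tested higher and 25.1% lower at the adjusted p. Past both thresholds these shares were 4.72% and 3.74%. Differences between the lists were not tested. A value given after a gene of these lists without a unit is its log2 fold change. Ligand storage and activation concerns the proteins that hold latent ligand in the matrix and release it. Of its 11 tested genes 4 rose, 3 fell and 4 did not pass, with a median log2 fold change of 0.28 beside 0.0010 over all genes tested. LTBP2 at 0.68, FBN1 at 0.64, THBS1 at 0.36 and LTBP1 at 0.28 rose. FBN1 encodes the microfibril protein fibrillin and THBS1 the activator thrombospondin. LTBP1 and LTBP2 belong to the family named for latent TGF-beta binding, and a family name does not show that each member binds the ligand. LTBP3, the LTBP gene with the highest CPM, did not pass (0.14, edgeR adjusted p = 0.0637). LTBP4 at −0.57 and the integrin chains ITGAV at −0.50 and ITGB8 at −0.57, which together activate latent ligand, fell. The third ligand gene, TGFB3, averaged 1.79 CPM in siCtrl and 2.28 CPM in siBAP18 with a log2 fold change of 0.37 (edgeR adjusted p = 0.125).

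Among the other receptors and co-receptors 7 of 14 tested genes fell, 2 rose and 5 did not pass, with a median log2 fold change of −0.22. CD109, a surface co-receptor that limits TGF-beta signaling, was the only gene of this list past both thresholds, with 2 such genes when siBAP18 replicate 1 was left out. It was at 36.5, 39.1 and 36.8 CPM in the siCtrl libraries and at 16.9, 19.5 and 17.1 CPM in the siBAP18 libraries. These are well apart, and the log2 fold change was −1.07 (SE 0.0763, edgeR adjusted p = 1.80e-11). TGFBR3, which encodes betaglycan, fell by 0.77 on the log2 scale, from 8.96 ± 1.11 to 5.21 ± 0.600 CPM (SD, n = 3). The BMP receptor genes BMPR1A (−0.24), BMPR1B (−0.46) and BMPR2 (−0.37), the activin receptor gene ACVR1B (−0.20) and the pseudoreceptor gene BAMBI (−0.35) fell too, and VASN (0.45), whose product traps TGF-beta, and ACVR2B (0.38) rose.

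The regulators of receptors and SMADs moved in both directions, with 7 of 22 higher, 7 lower and 8 not passing, none past both thresholds and a median log2 fold change of 0.02. Without siBAP18 replicate 1, 4 of them rose. The highest values were those of NEDD4L (0.91), a ubiquitin ligase for phosphorylated SMAD2 and SMAD3, and PMEPA1 (0.74), a target gene whose product holds SMAD2 and SMAD3 away from the receptor. NEDD4L averaged 31.0 CPM in siCtrl and 58.2 CPM in siBAP18, and PMEPA1 averaged 116 and 195 CPM. SMURF2 rose (0.36) and SMURF1 fell (−0.32), both ubiquitin ligases that SMAD7 brings to the receptor. Further falls were those of TRIM33 (−0.62), a SMAD4 partner and ubiquitin ligase, and of SKIL (−0.55), a SMAD corepressor that is also a target gene, while the corepressor genes SKI (0.17) and TGIF2 (0.48) rose.

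Of the other SMADs and nuclear partners 9 of 20 tested genes rose, 6 fell and 5 did not pass, with 4 past both thresholds upward, 1 downward and a median log2 fold change of 0.20. The BMP-branch SMAD genes SMAD1 (−0.47) and SMAD5 (−0.66) fell. ATF3, a stress-induced factor that binds SMAD3, went from 7.52, 6.54 and 7.17 CPM in siCtrl to 148, 133 and 131 CPM in siBAP18, a log2 fold change of 4.27 (SE 0.0846, edgeR adjusted p = 2.22e-22). The AP-1 genes JUN and FOS had log2 fold changes of 3.39 and 1.25, with JUN at a mean of 20.0 CPM in siCtrl and 210.1 CPM in siBAP18. RUNX2 reached 1.94 at low depth, with 4 to 12 counts in siCtrl and 20 to 44 in siBAP18. RBL1, whose product p107 takes part in the repression of MYC by SMAD3, fell by 1.02 on the log2 scale, and without siCtrl replicate 2, siBAP18 replicate 1 or siBAP18 replicate 3 the list had 0 genes lower past both thresholds.

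The list of TGF-beta target genes had the highest median log2 fold change of the 5, 0.38, with 21 of 37 tested genes higher, 6 lower and 10 not passing. Among all genes tested 24.5% were higher and 25.1% lower, and this list too was chosen with earlier results known. Past both thresholds were 7 genes upward and 3 downward, beside 4.72% and 3.74% of all genes tested. CYR61, a matricellular protein that is also a target of YAP, was at 7.90, 7.35 and 8.64 CPM in siCtrl and at 36.4, 33.05 and 33.01 CPM in siBAP18. The groups were far apart and the log2 fold change was 2.10 (SE 0.0839, edgeR adjusted p = 3.03e-16). CTGF (1.78), a related matricellular protein, the cell cycle inhibitor gene CDKN1A (1.74), which is also a p53 target, and ZEB2 (2.40), a repressor of epithelial genes, were named by the same rule. PTHLH (1.82) and KLF10 (1.33) also rose past both thresholds, and ID2 (−1.30), HMGA2 (−1.29) and ID1 (−1.13) fell past them.

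Target genes of matrix and cell shape also moved in both directions. COL4A1 (0.67), COL4A2 (0.52), TGFBI (0.70), TAGLN (0.61), TPM1 (0.38) and VIM (0.43) rose. FN1, which encodes fibronectin, fell from 1068 ± 16.0 to 614 ± 34.6 CPM (SD, n = 3), a log2 fold change of −0.80 (edgeR adjusted p = 3.54e-10), and COL1A1 fell as well (−0.38). MYC, which TGF-beta represses in epithelia, was at 56.4 ± 0.808 CPM in siCtrl and 55.3 ± 3.79 CPM in siBAP18 (SD, n = 3), with a log2 fold change of −0.03 (edgeR adjusted p = 0.771). Many of these genes answer to other pathways as well, and the part of TGF-beta signaling in their changes was not tested.

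**Figure D4:**
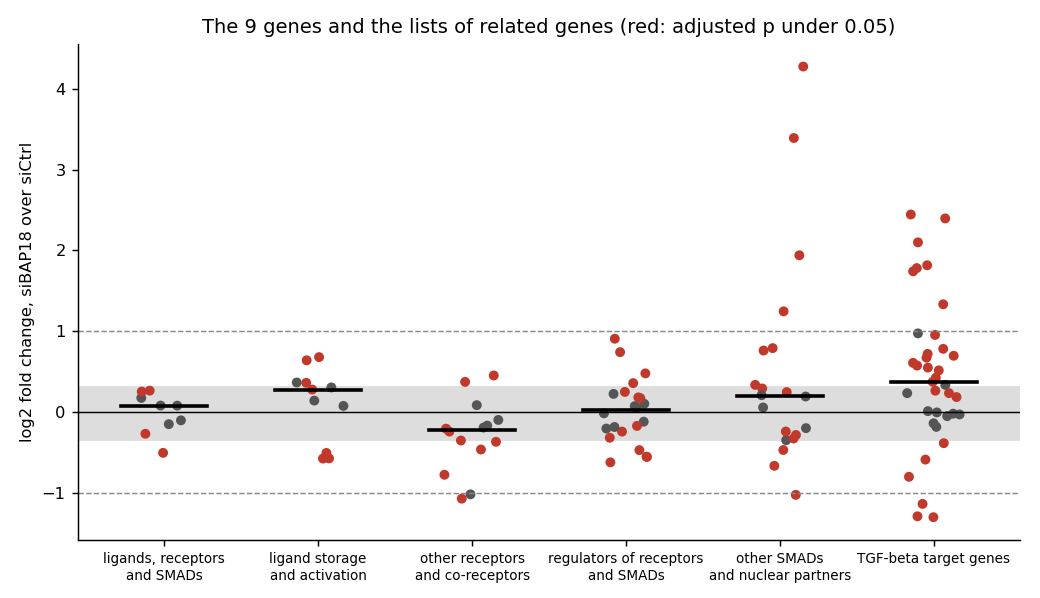
Log2 fold change (vertical axis) of the 9 genes and of the tested genes of the 5 lists, each point a gene, in red where the adjusted p was under 0.05, with black bars at the list medians and grey over the middle 50% of all genes tested. The 9 genes lie between −0.50 and 0.27, whereas the partners reach 4.27 with ATF3.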

How the data were processed

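RNA was taken from 3 siCtrl and 3 siBAP18 cultures of A549 cells, grouped by their labels as biological replicates, and poly(A) RNA was sequenced as paired ends from strand-marked libraries. The authors deposited whole-number counts per gene, without normalization, and RPKM values, which recomputation from the counts, listed lengths and library totals matched. The deposited exon positions are on GRCh38 (8 of 9 genes have the start and end of GENCODE 29), although the labels name the builds hg38 and GRCm38. Aligner, counter and use of strand are not given in the sources used here. No sample column was left unused (0).

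The test on the counts was that of edgeR 4.0.16 under R 4.3.3 (filterByExpr, TMM scaling, quasi-likelihood test on condition, Benjamini-Hochberg over 20776 genes). Standard errors are the log2 fold change over the square root of F. Ratios of RPKM were compared by exact permutation. limma 3.58.1, DESeq2 1.42.0 and other scalings, filters and left-out libraries were alternatives. The fit was checked on simulated counts.

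The members and lists were chosen with earlier results of these data known. Named were the 9 genes, C17orf49, per list up to 5 genes past both thresholds with the smallest adjusted p, and the 5 genes most like SMAD4, while other list genes were named after their values were seen. Some genes of these lists are not reported here by name. No pair of libraries within a group was a copy. Chi-square over its degrees of freedom was 3.94 to 4.56 for siCtrl pairs and 10.1 to 23.3 for siBAP18 pairs, highest for siBAP18 replicates 2 and 3. The siBAP18 libraries thus differed more among themselves than the siCtrl libraries. A gene with 0 counts could stand for up to 3 counts, and this covers counting error only. The counts of FOS, RUNX2 and CDH1 were even in every library. So were those of other genes, among them RBL1, ID3, JUNB, RHOB and GADD45B, whereas those of SMAD4 were not. Whether the mates of a pair were counted apart is not given and was not tested. If they were, low counts such as those of RUNX2 stand for fewer fragments. The bound holds only where each count is a separate fragment. Sequences came from GENCODE 29 and RefSeq tables, and pandas 2.3.3, numpy 2.4.6 and matplotlib 3.10.9 were used under Python 3.11.15.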

Additional observations from a re-analysis of the deposited data

How the results depend on the processing

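Across genes, the deviations of same-numbered libraries were little correlated (Pearson r 0.025, 0.120 and 0.048). This cannot decide whether replicate numbers pair the libraries for a single gene. TGFB1, TGFB2, TGFBR2 and SMAD6 had the same replicate order of CPM in both groups, and the others of the 9 genes did not. Each siBAP18 library was above the same-numbered siCtrl library for TGFB1 and below it for TGFBR2. With replicate numbers fitted as a block, genes at an adjusted p under 0.05 went from 10305 to 10803. Genes past both thresholds went from 1758 to 1741 (968 higher, 773 lower). In that fit TGFB1 (0.17, adjusted p = 0.0142) and TGFBR2 (−0.15, adjusted p = 0.0306) passed, and no other of the 9 calls changed.

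TGFB1 also passed with upper-quartile scaling (0.19, adjusted p = 0.0498), total counts only (0.18, adjusted p = 0.0413) and at least 10 counts in every library (0.18, adjusted p = 0.0433). With limma on log2(RPKM + 1), log2(RPKM + 0.1) (both with mean RPKM at least 0.5) and log2(RPKM + 1) without a filter, 348, 909 and 345 genes passed both thresholds and 1, 1 and 0 of the 9 genes rose, with 1 falling in the last. In those fits SMAD2 did not pass (0.16, 0.24 and 0.16), and in the last neither did TGFB2 (0.23) and SMAD6 (−0.23). Each gave 1 rise among the other receptors. With a pseudocount of 1, filtered or not, 0 other receptors and 1 target fell past both thresholds and 2 partners rose past them. Partners lower past both thresholds were 0 in all 3 and 2 without the edgeR filter. The unfiltered limma fit also had 4 receptors lower, 4 regulators higher and 3 partners lower at the adjusted p. By the adjusted p alone 10305 genes would be called, 2 of the 9 upward and 2 downward.

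Leaving out each library in turn, the log2 fold changes ran from 0.084 to 0.25 for TGFB1, from −0.20 to −0.11 for TGFBR2, from −0.14 to −0.03 for TGFBR1, from 0.18 to 0.33 for SMAD2, from 0.05 to 0.12 for SMAD3 and from −0.032 to 0.16 for SMAD7, which turned without siCtrl replicate 2 (−0.019) and siBAP18 replicate 2 (−0.032). Of the 9 genes, 1 to 3 rose and 2 to 3 fell. Counts past both thresholds lower ran from 1 to 2 in other receptors and from 0 to 2 in partners, and regulators higher from 4 to 7. The difference in the TGFBR1 to TGFBR2 log2 ratio ran from −0.022 (without siCtrl replicate 2) to 0.096, and that in the TGFB1 to TGFB2 ratio from −0.23 to 0.0081 (without siBAP18 replicate 2). The SMAD7 to SMAD6 difference ran from 0.18 to 0.45 and the SMAD3 to SMAD2 difference from −0.21 to −0.11. The causes were not tested.

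Per kilobase of the principal transcript, an alternative chosen after seeing the data, as were the summed counts of overlapping genes, the siCtrl and siBAP18 means became 40.03 and 45.3 (TGFB1), 22.3 and 23.7 (SMAD3), 20.5 and 17.1 (SMAD6), 4.76 and 5.70 (SMAD2), 2.10 and 1.49 (SMAD4), 1.36 and 1.44 (SMAD7), and 5.65 in siCtrl for TGFBR1, by their construction from other lengths. SMAD4 kept its call in all 18 settings. SMAD7, at 236 to 426 counts, has the widest interval of the 9.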
